A study of Mus musculus with 6 samples.

Results

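The interferon regulatory factors are a family of transcription factors that share a helix-turn-helix DNA-binding domain. They were followed here through 8 genes chosen by symbol, Irf1, Irf2, Irf3, Irf4, Irf5, Irf7, Irf8 and Irf9, out of 35275 genes in a table of read counts. The libraries were poly-A RNA sequencing of mouse liver cells that were retained on magnetic columns by CD31, an adhesion molecule of endothelium that some leukocytes also carry.

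All mice were 1 year old and carried p16-Cre, in which Cre recombinase is driven from the p16 locus, and Rosa26-mTmG, a reporter that turns from red to green fluorescence once Cre has acted. Green cells are thus cells, or descendants of cells, in which the p16 promoter was used. There were 3 libraries of GFP-positive cells and 3 of GFP-negative cells. The reporter records past as well as present use of the promoter. The labels' protocol also describes a culture in endothelial growth medium and does not say whether the sequenced RNA was taken before it. Libraries held 16766556 to 17849620 counts in the GFP-positive group and 18067411 to 22627555 in the GFP-negative group. No pair of libraries of 1 group looked like the same library deposited again: their counts differed by a chi-square of 77.4 to 130.5 per degree of freedom, where sampling noise alone gives about 1.

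Interferon regulatory factors bind paired GAAA cores and close variants, alone, with one another or with other factors. IRF3 and IRF7 are phosphorylated after microbial nucleic acid is sensed and switch on the interferon genes, and IRF5 acts beside them in inflammatory gene induction. IRF9 is the DNA-binding subunit of ISGF3, the complex that carries the signal of the type I interferon receptor. IRF1 and IRF2 compete for the same sites, IRF1 as an activator and IRF2 mostly as a repressor, while IRF4 and IRF8 pair with Ets factors such as PU.1 and direct the development of B cells, plasma cells, dendritic cells and macrophages. In the liver, interferon signalling is known in Kupffer cells, the resident macrophages, and in the sinusoidal endothelium.

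The stretches before the start sites of 4 members are shown because 1 of these genes rose in GFP-positive cells (Irf7), a pair of those that fell hold the motifs searched (Irf2 and Irf8), and Irf1 holds an element through which interferon-gamma is known to act. Capitals mark 2 motifs searched on both strands: GAAA followed by any 2 bases and GAAA, the core of the interferon-stimulated response element, and TTCNNNGAA, the core of the gamma-activated site. The sequences are from RefSeq on GRCm38.p6 and read 5′ to 3′ in the direction of the gene. They lie at chr7:141266482-141266674 on the minus strand for Irf7, and on the plus strand at chr8:46739495-46739731 for Irf2, chr8:120736108-120736357 for Irf8 and chr11:53769764-53770013 for Irf1.
Irf7: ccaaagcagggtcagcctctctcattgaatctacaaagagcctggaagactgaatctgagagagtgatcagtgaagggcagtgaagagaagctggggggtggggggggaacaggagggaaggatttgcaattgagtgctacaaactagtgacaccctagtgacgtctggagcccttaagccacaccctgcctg
Irf2: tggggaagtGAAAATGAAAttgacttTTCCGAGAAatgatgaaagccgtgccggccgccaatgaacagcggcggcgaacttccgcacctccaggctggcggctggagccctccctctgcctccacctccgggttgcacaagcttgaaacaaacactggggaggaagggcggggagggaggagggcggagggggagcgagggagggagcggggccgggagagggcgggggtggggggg
Irf8: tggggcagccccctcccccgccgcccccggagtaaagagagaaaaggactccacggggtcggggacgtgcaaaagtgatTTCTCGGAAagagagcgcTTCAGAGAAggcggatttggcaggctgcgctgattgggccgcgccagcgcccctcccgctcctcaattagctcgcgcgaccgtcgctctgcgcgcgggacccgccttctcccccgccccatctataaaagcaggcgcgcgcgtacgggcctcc
Irf1: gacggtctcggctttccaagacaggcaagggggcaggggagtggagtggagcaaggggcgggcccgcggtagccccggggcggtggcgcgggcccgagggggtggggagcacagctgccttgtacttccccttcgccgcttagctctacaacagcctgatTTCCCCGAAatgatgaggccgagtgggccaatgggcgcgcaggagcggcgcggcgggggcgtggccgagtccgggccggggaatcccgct
Whole windows, which run from 250 bases before the start to 50 bases after it, were available for all 8 members, 11 windows in all. Irf2 held 1 response element core, with its first base at -241 from the start, and 1 gamma-activated core at -224. A pair of gamma-activated cores, at -171 and -153, stood in the first window of Irf8, and 1, at -90, in that of Irf1. None of these letters occurred in the window of Irf7 or in those of Irf3, Irf4, Irf5 and Irf9. Of all 32851 mouse windows, 3.44% held the first motif and 8.30% the second, and a match or its lack describes these letters only.

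All 8 members passed the filter on low counts. In edgeR's quasi-likelihood fit, with p-values adjusted by Benjamini-Hochberg over 12122 genes, 1 member was higher in GFP-positive cells (Irf7), 3 were lower (Irf2, Irf5 and Irf8) and 4 did not pass (Irf1, Irf3, Irf4 and Irf9). Of all genes tested, 17.8% passed this test, 7.65% higher and 10.1% lower. Groups did not overlap for 6 members, 1 higher and 5 lower, against 42.4% of all genes tested, 18.5% higher and 23.9% lower. The median log2 fold change of the members, GFP-positive minus GFP-negative, was -0.72, beside -0.09 for all genes tested. Levels below are CPM (counts scaled to the same library total, after trimmed-mean normalisation), and errors of means are SD with n = 3 in each group.

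**Figure D1:**
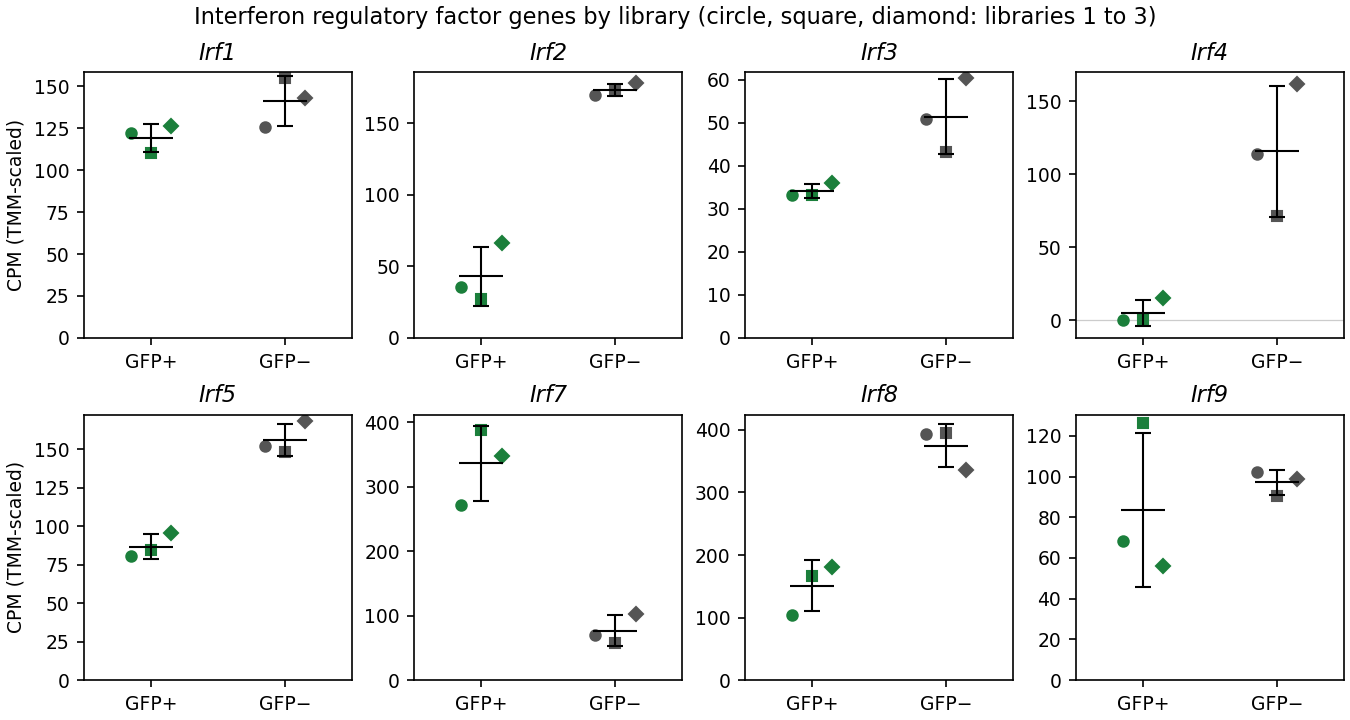
Level of each interferon regulatory factor in each library, in scaled CPM on a linear axis, with GFP-positive libraries left of GFP-negative ones; bars are the mean and SD of 3 libraries. Irf7 is higher in all GFP-positive libraries, Irf2, Irf5 and Irf8 are lower in all of them, and Irf4 is near 0 in 2 of them and at 15.3 CPM in the third.

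The groups also differed in markers of cell types, which is stated here once because bulk RNA cannot tell fewer cells of a type from less RNA per cell. Both groups held the endothelial markers that the CD31 label calls for. Pecam1, the gene of the sorting antigen CD31, averaged 453 ± 58.5 CPM across GFP-positive and 342 ± 41.0 CPM across GFP-negative libraries (adjusted p = 0.123). The pan-endothelial markers, Pecam1 among them, summed to 4293 to 5358 CPM in GFP-positive and 2110 to 2389 CPM in GFP-negative libraries. Of these 10 markers, 7 were higher and 0 lower, and Pecam1 was among the 3 that did not pass. Summed sinusoidal markers lay at 11532 to 12908 CPM in GFP-positive libraries and 4655 to 5300 CPM in GFP-negative ones, with 9 of 10 higher. Kupffer cell markers were all higher, 10 of 10, with sums of 13788 to 14980 CPM in GFP-positive libraries against 903 to 1226 CPM in GFP-negative ones. B cell markers were all lower, 8 of 8, with sums of 88.4 to 160 CPM in GFP-positive libraries against 13132 to 14294 CPM in GFP-negative ones, and no B cell marker was at 0 in all libraries of a group. The part of these differences in the results on the interferon regulatory factors was not tested.

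**Figure D2:**
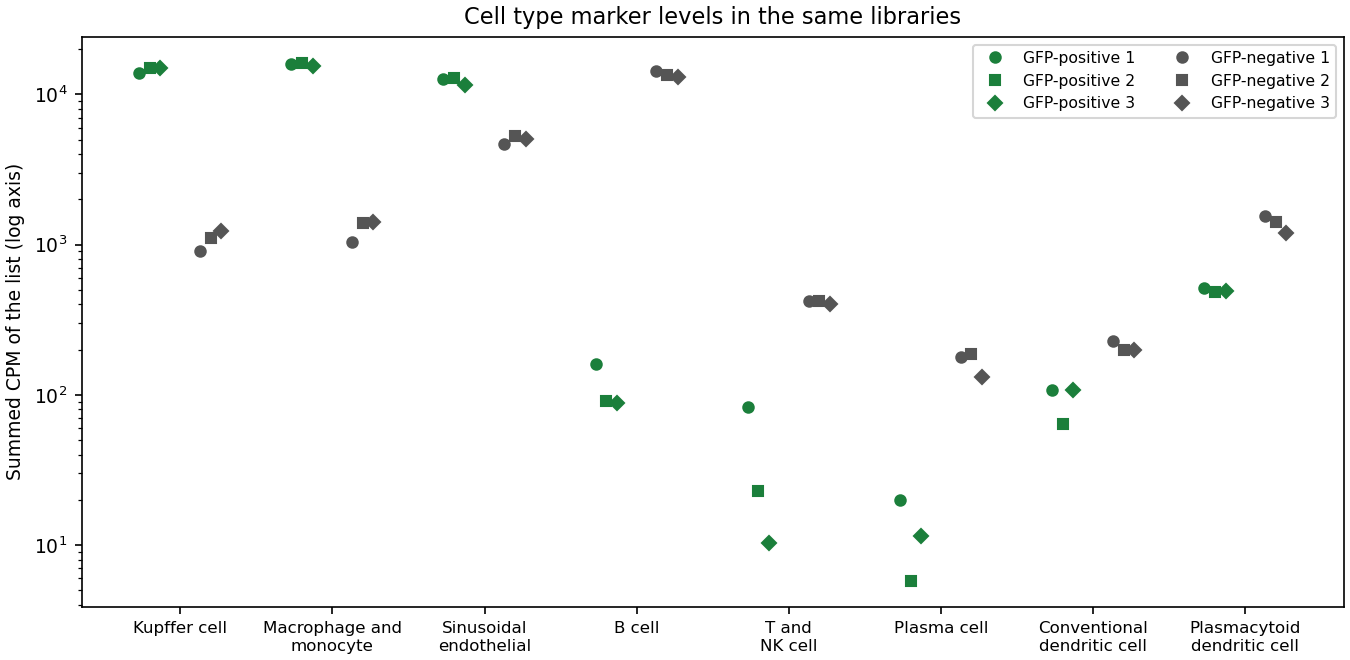
Summed level of 8 lists of cell type markers in each library, in scaled CPM on a log axis, GFP-positive libraries in green to the left of GFP-negative ones in grey. Kupffer cell, macrophage and sinusoidal sums are higher in the GFP-positive libraries, and B cell, plasma cell and T and NK cell sums are lower in them.

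Irf7 (ENSMUSG00000025498; GRCm38 chromosome 7, 141262706 to 141266481, minus strand), the inducer of the interferon-alpha genes, was the member that rose. Its level was 272, 388 and 348 CPM in GFP-positive libraries 1, 2 and 3, against 70.4, 57.3 and 103 CPM in GFP-negative libraries 1, 2 and 3. The lowest GFP-positive library was above the highest GFP-negative one, and library 3 was the highest of the GFP-negative group. Mean levels were 336 ± 58.9 CPM across GFP-positive and 76.9 ± 23.5 CPM across GFP-negative cells, a log2 change of 2.13 (SE 0.266, adjusted p = 0.00285), or 4.37-fold. The call was kept without each library in turn, with log2 fold changes of 1.95 to 2.39. Exons of Phrf1 overlap Irf7 on the other strand, and whether reads were counted by strand is not given. Phrf1 itself averaged 11.6 ± 13.9 CPM across GFP-positive and 38.4 ± 22.0 CPM across GFP-negative libraries. It did not pass (log2 fold change -1.73, SE 1.22, adjusted p = 0.41), and the part of its reads in the Irf7 level was not tested.

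Irf3 (ENSMUSG00000003184; chromosome 7, 44997648 to 45002848), the constitutive factor that starts interferon-beta transcription, did not pass the test. It was at 33.3, 33.3 and 36.0 CPM in GFP-positive libraries and at 50.9, 43.1 and 60.4 CPM in GFP-negative libraries. The groups did not overlap, and the GFP-positive libraries lay close together. The log2 fold change was -0.59 (SE 0.291, adjusted p = 0.229). Exons of Bcl2l12 overlap Irf3 on the other strand. Bcl2l12 averaged 1.68 ± 0.367 CPM across GFP-positive and 3.65 ± 1.12 CPM across GFP-negative libraries and did not pass (log2 fold change -1.11, adjusted p = 0.542). Within each library, with 0.5 CPM added to each level, Irf7 was above Irf3 by a log2 ratio of 3.01, 3.52 and 3.26 in GFP-positive libraries and of 0.46, 0.41 and 0.76 in GFP-negative libraries. The added value is small beside these levels, and the ratios did not overlap between groups, with a difference of 2.72 (exact permutation test, two-sided p = 0.1, the smallest that 3 against 3 allows).

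Irf5 (ENSMUSG00000029771; chromosome 6, 29526625 to 29541871), which relays Toll-like receptor signals to inflammatory cytokine genes, was lower in GFP-positive cells. It reached 80.4, 84.2 and 95.6 CPM in GFP-positive libraries, against 152, 148 and 168 CPM in GFP-negative libraries. All GFP-positive values were below all GFP-negative ones, and neither group spread widely. Means of 86.8 ± 7.90 CPM across GFP-positive and 156 ± 10.6 CPM across GFP-negative cells gave a log2 change of -0.85 (SE 0.176, adjusted p = 0.0191). The call was close to the threshold: it was lost without GFP-positive library 1 or 2 (adjusted p = 0.0527 and 0.0558) and without GFP-negative library 1, 2 or 3 (adjusted p = 0.0656, 0.0604 and 0.0746), with the fold change at -0.93 to -0.79 throughout. Tnpo3, whose exons overlap Irf5 on the other strand, averaged 20.6 ± 21.5 CPM across GFP-positive and 55.6 ± 25.4 CPM across GFP-negative libraries and was not called (log2 fold change -1.43, adjusted p = 0.29).

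Irf8 (ENSMUSG00000041515; chromosome 8, 120736358 to 120756694), required for monocytes and dendritic cells and also active in B cells, was lower. Its level was 104, 166 and 181 CPM in GFP-positive libraries, against 394, 396 and 335 CPM in GFP-negative libraries. Library 1 was the lowest of the GFP-positive group, and the groups did not overlap. Means were 151 ± 40.8 CPM across GFP-positive and 375 ± 34.4 CPM across GFP-negative cells, a log2 change of -1.31 (SE 0.229, adjusted p = 0.0107), 2.49-fold lower. The call was kept without each library in turn, at -1.47 to -1.11, with an adjusted p of up to 0.0478, near the threshold. Irf8 thus fell in libraries where Kupffer cell and macrophage markers were higher and B cell markers lower, at the sums given above.

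Irf4 (ENSMUSG00000021356; chromosome 13, 30749226 to 30766976), the factor of B cell activation and plasma cell differentiation, varied most within the GFP-positive group. It had 2, 0 and 277 counts in GFP-positive libraries 1, 2 and 3, against 2199, 1302 and 3713 counts in GFP-negative libraries. That is 0.124, 0 and 15.3 CPM in GFP-positive and 114, 71.8 and 162 CPM in GFP-negative libraries. A single GFP-positive library therefore held almost all of the GFP-positive counts, and it still lay below all GFP-negative ones. Over all libraries the log2 fold change of -4.48 did not pass (SE 1.78, adjusted p = 0.143). Without GFP-positive library 3 the call was made (log2 fold change -10.76, adjusted p = 0.00155), and limma-voom on all libraries also made it (-8.06, adjusted p = 0.0475). With all GFP-positive libraries their mean was 22.4-fold below the GFP-negative mean. Without GFP-positive library 3, libraries 1 and 2 pooled were 1927-fold below that mean. The 95% counting interval of 533 to 15908 for these 2 libraries holds no spread between libraries. The 0 counts of GFP-positive library 2 allow a level of up to 0.175 CPM.

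Beside the higher Irf4 of GFP-positive library 3, the B cell marker sums were 160, 91.0 and 88.4 CPM in GFP-positive libraries 1, 2 and 3. Plasma cell markers summed to 20.0, 5.77 and 11.4 CPM and T and NK cell markers to 83.1, 22.8 and 10.2 CPM in the same libraries. Single B cell genes did not all follow the order of the B cell sums. Ighm, the most abundant marker, did, at 69.8, 43.0 and 9.36 CPM in GFP-positive libraries 1, 2 and 3. Cd79a, another B cell marker, and Mzb1, a plasma cell marker, were also highest in GFP-positive library 1, at 35.8 and 4.77 CPM. Of genes described below, Bach2 was highest in GFP-positive library 2, at 4.43 CPM. Spib, Pou2af1 and Ebf1 were highest in GFP-positive library 3, at 5.15, 5.26 and 2.60 CPM. The part of B or plasma cells in the Irf4 value was not tested. Profiles were then compared with candidate genes that had a mean log2 CPM of at least 2. Immunoglobulin genes, Gm and Rik genes and genes lacking a symbol were left out, so they could not be found as nearest. Among the candidates, the profiles of Tent5c and Icosl were most like that of Irf4 over the 6 libraries. Their Euclidean distances were 1.18 and 1.19 between centred log2 CPM values. Tent5c, a poly-A polymerase known in plasma cells, was at 0.124, 0 and 10.2 CPM in GFP-positive libraries, against 76.5, 101.5 and 83.6 CPM in GFP-negative ones. Icosl, a ligand of the T cell costimulator ICOS, was at 0.186, 0 and 9.81 CPM in GFP-positive libraries, against 106, 124 and 114 CPM in GFP-negative ones. Both share with Irf4 the single high GFP-positive library, which follows from their choice by profile.

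Irf8 and Irf5 stood higher over Irf4 in GFP-positive libraries. The log2 ratio of Irf8 to Irf4 (with 0.5 CPM added to each) was 7.39, 8.38 and 3.52 in GFP-positive libraries and 1.79, 2.45 and 1.05 in GFP-negative libraries. For Irf5 to Irf4 it was 7.02, 7.41 and 2.60 in GFP-positive libraries and 0.42, 1.04 and 0.06 in GFP-negative libraries. Neither pair overlapped between groups (exact permutation test, two-sided p = 0.1 each), and GFP-positive library 3 had the smallest ratios of its group. Values from libraries with 0 to 2 counts of Irf4 depend on the added 0.5 CPM.

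Irf2 (ENSMUSG00000031627; chromosome 8, 46739732 to 46847458), the repressor of interferon-responsive promoters, was lower. Levels were 35.6, 27.4 and 66.1 CPM in GFP-positive libraries, against 169.7, 173 and 178 CPM in GFP-negative libraries. The GFP-negative libraries were almost equal, and GFP-positive library 3 was the highest of its group. Mean levels of 43.0 ± 20.4 CPM across GFP-positive and 174 ± 4.21 CPM across GFP-negative cells gave a log2 change of -2.01 (SE 0.347, adjusted p = 0.0103), 4.03-fold lower. The call was kept without each library in turn, at -2.47 to -1.77, with an adjusted p of up to 0.0426, near the threshold.

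Irf1 (ENSMUSG00000018899; chromosome 11, 53770014 to 53778374), its activating counterpart and an early interferon-gamma target, did not pass. It was at 122, 110.1 and 126 CPM in GFP-positive libraries, against 125, 155 and 143 CPM in GFP-negative libraries. GFP-positive library 3 and GFP-negative library 1 overlapped, and the log2 fold change was -0.24 (SE 0.174, adjusted p = 0.419). Gm17334, whose exons overlap Irf1 on the other strand, had 3 counts over all libraries. The log2 ratio of Irf1 to Irf2 was 1.77, 1.98 and 0.93 in GFP-positive libraries and -0.43, -0.16 and -0.32 in GFP-negative libraries. Irf1 was the higher of the pair in each GFP-positive library and the lower in each GFP-negative one, a difference of 1.86 that 3 against 3 libraries cannot bring past the threshold (exact permutation test, two-sided p = 0.1).

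Irf9 (ENSMUSG00000002325; chromosome 14, 55603571 to 55610030), the DNA-binding subunit of ISGF3, did not differ beyond the spread. It was at 68.4, 126 and 56.0 CPM in GFP-positive libraries, against 102, 90.2 and 98.8 CPM in GFP-negative libraries. GFP-positive library 2 was above all others, GFP-positive libraries 1 and 3 were below all others, and the log2 fold change was -0.22 (SE 0.331, adjusted p = 0.735). Without GFP-positive library 3 it came to 0.0047, and without library 2 of the same group to -0.64 (adjusted p = 0.149). Rnf31, whose exons overlap Irf9 on the same strand, did not pass either (log2 fold change -0.03, adjusted p = 0.984). The log2 ratio of Irf8 to Irf9 was 0.61, 0.39 and 1.69 in GFP-positive libraries and 1.94, 2.13 and 1.76 in GFP-negative libraries, a difference of -1.05 (exact permutation test, two-sided p = 0.1). All 5 within-library ratios compared had the same adjusted p of 0.1.

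**Figure D3:**
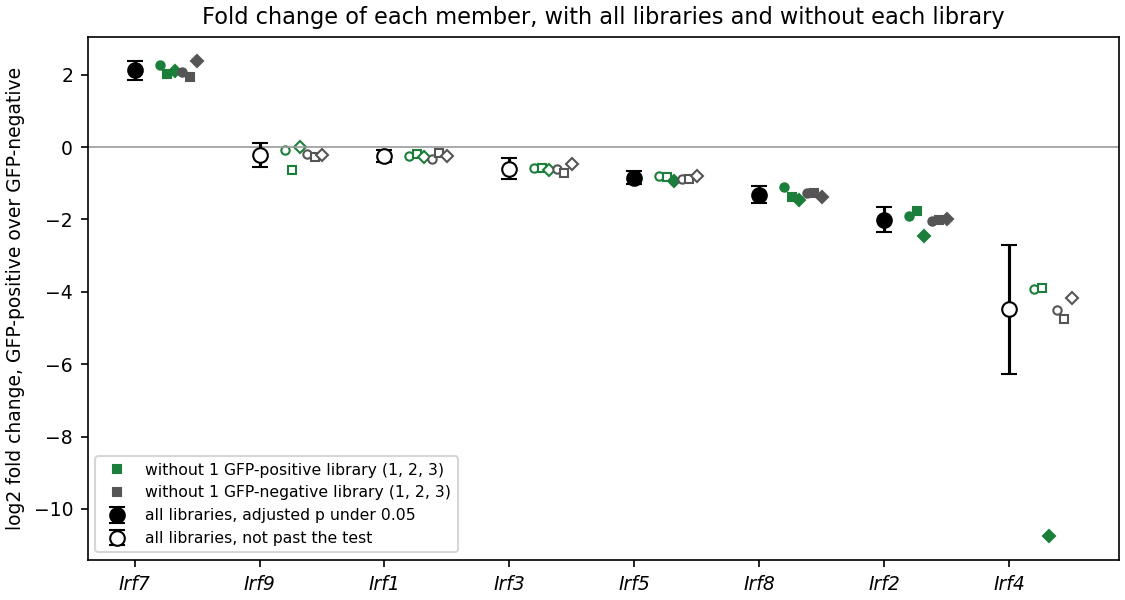
Log2 fold change of each member, GFP-positive over GFP-negative, with its standard error over all libraries (large circles) and without each library in turn (small symbols; filled where the adjusted p is under 0.05). Irf7 stays between 1.95 and 2.39, Irf2 and Irf8 stay called on the lower side, and Irf4 reaches -10.76 without GFP-positive library 3.

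Levels of different genes were compared per kilobase of exon, with lengths from GENCODE M21, since the authors' annotation is not given. In GFP-positive cells the order of mean CPM per kilobase was Irf7 (89.0), Irf1 (30.0), Irf5 (29.9), Irf8 (21.4), Irf9 (15.5), Irf3 (9.93), Irf2 (5.82) and Irf4 (1.05). Irf1 and Irf5, Irf8 and Irf9, and Irf9 and Irf3 overlapped between libraries, while Irf7 lay above every other member in every GFP-positive library. In GFP-negative cells the order was Irf5 (53.7), Irf8 (53.1), Irf1 (35.5), Irf4 (23.6), Irf2 (23.5), Irf7 (20.4), Irf9 (18.0) and Irf3 (15.0). Only Irf8 and Irf1 were neighbours without overlap there.

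Irf7 thus made up 43.8 ± 2.62% of the family's summed CPM per kilobase in GFP-positive libraries and 8.29 ± 1.94% in GFP-negative libraries. The share of Irf8 was 10.4 ± 1.70% in GFP-positive and 22.0 ± 3.40% in GFP-negative libraries. That of Irf5 was 14.8 ± 1.48% in GFP-positive and 22.1 ± 0.184% in GFP-negative libraries. Irf4 made up 0.489 ± 0.835% in GFP-positive and 9.58 ± 3.10% in GFP-negative libraries. Irf1 and Irf9 took similar shares in both groups, 15.0 ± 2.63% and 7.62 ± 2.94% in GFP-positive and 14.7 ± 2.08% and 7.44 ± 0.494% in GFP-negative libraries. The sum itself was 203 ± 26.2 CPM per kilobase in GFP-positive and 243 ± 16.9 in GFP-negative libraries, and all GFP-positive sums were below all GFP-negative ones. Shares within a library move together, so a rise of Irf7 alone lowers the others.

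**Figure D4:**
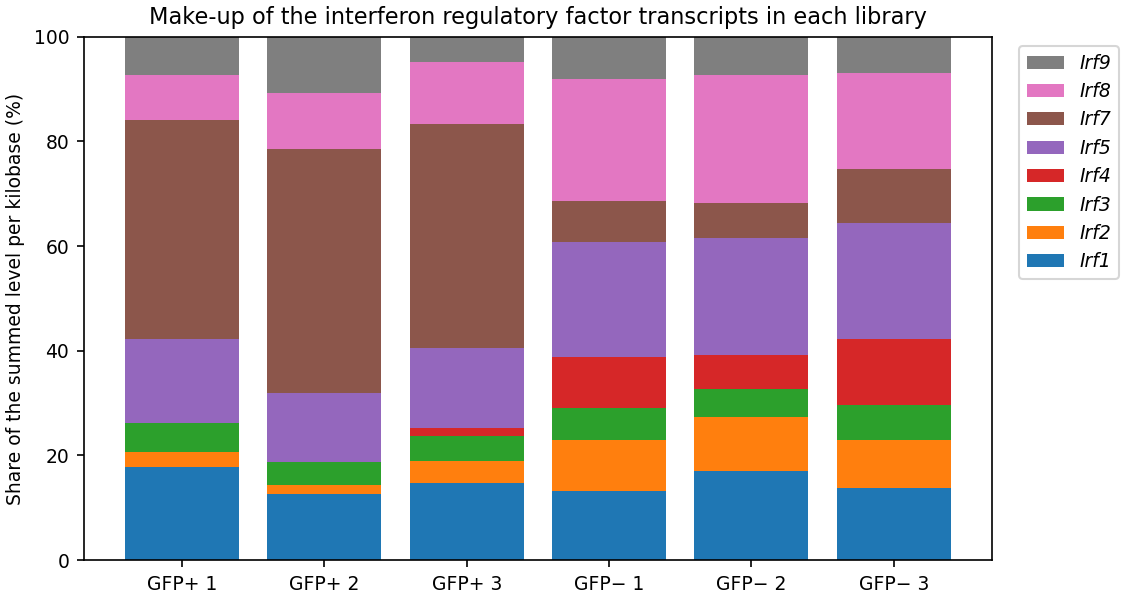
Share of each member in the summed CPM per kilobase of the 8 interferon regulatory factors, in percent, 1 bar per library, GFP-positive libraries on the left. Irf7 takes 41.8 to 46.7% of each GFP-positive bar and 6.64 to 10.4% of each GFP-negative bar.

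By the same distance as for Irf4, over 6 libraries and 8855 candidate genes, the profile nearest to Irf7 was that of Cenpb (0.41), which encodes a centromere-binding protein, followed by Ctsc (0.42), a lysosomal cathepsin. Irf2 was nearest to Isg20l2 (0.29) and Mfsd14a (0.32), and Irf8 to Epb41 (0.22), a membrane skeleton protein of red cells, and Cybc1 (0.31), a chaperone of the phagocyte NADPH oxidase. Irf1 lay nearest to Mgat2 (0.17) and Mpc1 (0.20), Irf3 to Sqstm1 (0.21) and Aspscr1 (0.22), Irf5 to Dera (0.17) and Eral1 (0.18), and Irf9 to Phf2 (0.27) and BC029722 (0.34). None of the nearest genes was another member.

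The interferon genes listed upstream of the family had few or no reads in either group, apart from Ifng in GFP-negative libraries. Other interferon genes were not looked at. Of 9 ligands, 7 had 0 counts in all libraries, among them Ifnb1 and the interferon-alpha genes Ifna1, Ifna2 and Ifna4. Poly-A selection of the RNA applies to these values. Ifng, the lymphocyte interferon, had 0 counts in each GFP-positive library, against 164, 92 and 57 counts in GFP-negative libraries, at least 91.5-fold lower against a floor of 3 counts over the group. Its call (adjusted p = 0.0267) was lost without any 1 library of either group. T and NK cell markers, whose sums are 10.2 to 83.1 CPM in GFP-positive and 400 to 420 CPM in GFP-negative libraries, moved with it. Of the 10 tested markers of these cells 2 were lower, and Cd8a and Ncr1 were at 0 in all GFP-positive libraries but not in all GFP-negative ones. Klrb1c was at 0 in both groups.

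Of the 8 interferon receptor and Janus kinase genes tested, 1 rose, 3 fell and 4 missed the threshold (median log2 fold change -0.42). Beside this list and those below, 7.65% of all genes tested were higher and 10.1% lower. Ifnar1, a chain of the type I receptor, was at 47.7 ± 26.2 CPM across GFP-positive and 144 ± 30.1 CPM across GFP-negative libraries (log2 fold change -1.59, adjusted p = 0.0376). The interferon-gamma receptor chain Ifngr1 (-1.27, adjusted p = 0.0433) and the kinase Jak2 (-1.01, adjusted p = 0.033) were also lower. Il10rb, shared by the receptors of interleukin-10 and interferon-lambda, was higher (0.78, adjusted p = 0.036). All these calls lay near the threshold: none of the 3 lower calls was kept without GFP-positive library 1 or without any 1 GFP-negative library. Jak2, Ifngr1 and Il10rb also lost theirs without GFP-positive library 2, and Ifnar1 without GFP-positive library 3, while Il10rb lost its call without each of the other libraries except GFP-positive library 3.

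Among the sensors, adaptors and kinases that activate IRF3, IRF5 and IRF7, 26 were tested, of which 3 fell, none rose and 23 missed the threshold (median 0.15). The share that fell was near the 10.1% of all genes tested. With DESeq2 and with limma-voom 1 of them rose. Trim25, the ubiquitin ligase of the RNA sensor RIG-I, was at 23.2 ± 8.18 CPM across GFP-positive and 143 ± 31.4 CPM across GFP-negative libraries (log2 fold change -2.62, adjusted p = 0.00435). Slc15a4, an endolysosomal transporter needed for IRF5 activation by Toll-like receptors, fell by 1.94 (log2, adjusted p = 0.00777). Ikbkb, a kinase of IRF5 and of the NF-kappaB inhibitors, fell by 1.42 (adjusted p = 0.0144), a call lost without GFP-negative library 1. Cgas, the cytosolic DNA sensor, had 227, 39 and 59 counts in GFP-positive libraries, against 3, 0 and 0 counts in GFP-negative libraries, and did not pass (adjusted p = 0.0668).

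Of 15 negative regulators, 1 rose, 6 fell and 8 missed the threshold (median -0.43). Ptpn6, the leukocyte phosphatase SHP-1, was at 131 ± 11.5 CPM across GFP-positive and 439.9 ± 18.4 CPM across GFP-negative libraries (log2 fold change -1.75, SE 0.137, adjusted p = 0.000326). Tnfaip3, which encodes A20, had 337, 105 and 3 counts in GFP-positive libraries, against 4019, 4820 and 6965 counts in GFP-negative libraries (log2 fold change -4.84, adjusted p = 0.036). Tax1bp1, an adaptor of A20, fell by 1.01 (adjusted p = 0.0137) and the deubiquitinase Otud1 by 2.82 (adjusted p = 0.0138). Ptpn11, the phosphatase SHP-2, was higher at 149 ± 10.9 CPM across GFP-positive and 58.7 ± 17.5 CPM across GFP-negative libraries (1.35, adjusted p = 0.0173). Ptpn6 kept its call without each library, while the number lower in the list was 2 without any 1 GFP-negative library, 4 without GFP-positive library 1 and 3 without GFP-positive library 2. Tnfaip3 lost it without GFP-positive library 2 or any GFP-negative library, Tax1bp1 without GFP-negative library 1 or 2, Otud1 without GFP-negative library 3, and Ptpn11 without GFP-positive library 1 or GFP-negative library 2.

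Of 11 tested genes in a list of DNA-binding partners of the family, 1 rose, 3 fell and 7 missed the threshold (median 0.36). The gene that rose, Id2, does not itself bind DNA. Spib, the Ets factor that pairs with IRF4 and IRF8 in B cells, was at 2.79, 0 and 5.15 CPM in GFP-positive libraries, against 303, 204 and 273 CPM in GFP-negative libraries (log2 fold change -6.61, adjusted p = 0.0103). Ikzf1, which encodes Ikaros, fell by 3.53 (adjusted p = 0.018), a call lost without any 1 GFP-negative library, and Tcf3, which encodes the E2A proteins, fell by 1.32 (adjusted p = 0.01). Id2 encodes an antagonist of E proteins and was higher at 321 ± 12.5 CPM across GFP-positive and 143 ± 4.74 CPM across GFP-negative libraries (1.17, adjusted p = 0.00173). Spi1, which encodes PU.1 and is named outside the rule for named genes after its value was seen, was at 112 ± 20.8 CPM across GFP-positive and 87.3 ± 4.74 CPM across GFP-negative libraries and did not pass (0.36, adjusted p = 0.312).

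Of 3 corepressors that bind IRF2, 2 fell (median log2 fold change -1.95). Irf2bp2 was at 19.6, 4.89 and 28.8 CPM in GFP-positive libraries, against 108, 155 and 121 CPM in GFP-negative libraries (log2 fold change -2.85, adjusted p = 0.0226). Irf2bp1 fell by 1.95 (adjusted p = 0.0249), and the log2 fold change of Irf2bpl was -1.26 (adjusted p = 0.129). Both calls were lost without GFP-positive library 1 or any 1 GFP-negative library, and that of Irf2bp1 also without GFP-positive library 3. Of 3 genes of pyroptosis around IRF2, known as an activator of Gsdmd, only Casp1 was called (log2 fold change 1.12, adjusted p = 0.0299), and it kept its call only without GFP-positive library 3. Gsdmd, the pore-forming protein, was at 63.6 ± 9.63 CPM across GFP-positive and 56.7 ± 4.09 CPM across GFP-negative libraries (0.17, adjusted p = 0.726), while Irf2 was 4.03-fold lower.

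Among target genes of ISGF3, 9 of 29 tested rose, 1 fell and 19 missed the threshold, with a median log2 fold change of 1.07. Of all genes tested, 7.65% were higher, and 2 genes of the list, Bst2 among them, also stand in another list. Their summed level was 3080 to 3751 CPM in GFP-positive and 1439 to 1596 CPM in GFP-negative libraries. Ifitm3, which blocks viral entry, was at 1336 ± 241 CPM across GFP-positive and 354 ± 16.7 CPM across GFP-negative libraries (log2 fold change 1.92, SE 0.153, adjusted p = 0.000374). Ifi44 (1.91, adjusted p = 0.00559), the RNA-activated synthetase gene Oas1a (2.06, adjusted p = 0.00621) and Bst2 (1.22, adjusted p = 0.01), which encodes tetherin, were higher too, and these 4 kept their calls without each library. Samd9l was the gene called lower (-1.72, adjusted p = 0.0243), a call lost without any 1 GFP-negative library. The number called higher was 5 without GFP-positive library 2, and 6, 5 and 6 without GFP-negative library 1, 2 and 3, against 13 with DESeq2. Kupffer cell and sinusoidal marker sums, given above, were higher in the same libraries.

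Of 25 tested targets of IRF1 and interferon-gamma, 6 rose, 1 fell and 18 missed the threshold (median 0.70), in libraries where Irf1 itself did not differ beyond the spread. The chemokine Cxcl9 was at 263 ± 14.9 CPM across GFP-positive and 75.8 ± 19.3 CPM across GFP-negative libraries (log2 fold change 1.79, SE 0.226, adjusted p = 0.00294). The interferon-induced GTPases Gbp3 (1.80, adjusted p = 0.00491), Gbp7 (1.36, adjusted p = 0.00712) and Irgm1 (1.25, adjusted p = 0.00555) were also higher. Tap1, the peptide transporter of antigen presentation, was lower at 51.5 ± 0.937 CPM across GFP-positive and 181 ± 21.9 CPM across GFP-negative libraries (-1.81, SE 0.186, adjusted p = 0.00113). The calls of these 5 genes were kept without each library in turn. With DESeq2, 9 genes of the list rose and 5 fell. Guanylate-binding proteins are close copies of one another, so that the counting could divide their reads.

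Of 8 tested partners and targets of IRF4 in B and plasma cells, 5 fell and 3 missed the threshold (median -5.95). Pax5, the B cell identity factor, had 0 counts in each GFP-positive library, against 582, 398 and 463 counts in GFP-negative libraries, at least 412-fold lower. Ebf1 was at 2.26 ± 0.463 CPM across GFP-positive and 259 ± 47.4 CPM across GFP-negative libraries (log2 fold change -6.83, SE 0.296, adjusted p = 3.29e-05). Pou2af1, a B cell coactivator, had 3, 3 and 95 counts in GFP-positive libraries, against 4626, 8146 and 11452 counts in GFP-negative libraries (-7.70, adjusted p = 0.00893), with GFP-positive library 3 again the highest of its group. Bach2, a repressor of plasma cell fate, was lower (-5.06, adjusted p = 0.0248), a call lost without GFP-positive library 3 or any 1 GFP-negative library. The number lower in the list was 3 without any 1 GFP-negative library, and its median is the same with Pax5 at its bound. The B cell marker sums moved with this list, at 88.4 to 160 CPM in GFP-positive and 13132 to 14294 CPM in GFP-negative libraries.

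Of 12 tested targets of IRF8 and PU.1 in mononuclear phagocytes, 5 rose, 2 fell and 5 missed the threshold (median 0.37), while Irf8 itself was lower. Csf1r, the receptor of macrophage colony-stimulating factor, was at 1445 ± 282 CPM across GFP-positive and 117 ± 30.8 CPM across GFP-negative libraries (log2 fold change 3.63, SE 0.255, adjusted p = 0.000224). Slc11a1, a phagosomal metal transporter, was higher by 4.03 (adjusted p = 0.000272), and the cathepsin genes Ctsc and Ctss by 2.12 and 1.28 (adjusted p = 0.000326 and 0.000559). Ncf4, a subunit of the phagocyte NADPH oxidase, was lower (-1.20, adjusted p = 0.0109; lost without GFP-negative library 1), as was Pml, of nuclear bodies (-1.43, adjusted p = 0.0149; lost without GFP-negative library 1 or 2). Macrophage and monocyte markers moved with the higher genes, 10 of 12 higher and 1 lower, with sums of 15545 to 16275 CPM in GFP-positive and 1038 to 1408 CPM in GFP-negative libraries. Csf1r stands in both of these lists. Conventional dendritic cell markers, which mark another cell type that needs Irf8, had 2 of 7 lower. They summed to 63.7 to 108 CPM in GFP-positive and 198 to 228 CPM in GFP-negative libraries. Wdfy4 made up most of the GFP-negative sums, at 5.81 ± 5.32 CPM across GFP-positive and 128 ± 14.2 CPM across GFP-negative libraries. Its call (adjusted p = 0.0366) was kept only without GFP-positive library 1. Zbtb46, at 73.0 ± 30.2 CPM across GFP-positive and 56.5 ± 3.65 CPM across GFP-negative libraries, did not pass (adjusted p = 0.561). Of 5 tested markers of plasmacytoid dendritic cells, which are known for high Irf7 and Irf8, 2 were higher and 2 lower. Their sums were 485 to 511 CPM in GFP-positive and 1194 to 1541 CPM in GFP-negative libraries, and Ly6d, which averaged 12.4 ± 15.3 CPM across GFP-positive and 1191 ± 142 CPM across GFP-negative libraries, made up most of the GFP-negative sums. Bst2, another marker of this list, was higher, at 358 ± 25.1 CPM across GFP-positive and 154 ± 36.8 CPM across GFP-negative libraries. Ccr9, Cox6a2 and Pacsin1 were at 0 in all GFP-positive libraries but not in all GFP-negative ones, and Klk1 was at 0 in both groups. B cell marker sums, given above, were also lower in the GFP-positive libraries. The part of B cells in the Wdfy4 and Ly6d levels, and so in both dendritic cell sums, was not tested.

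**Figure D5:**
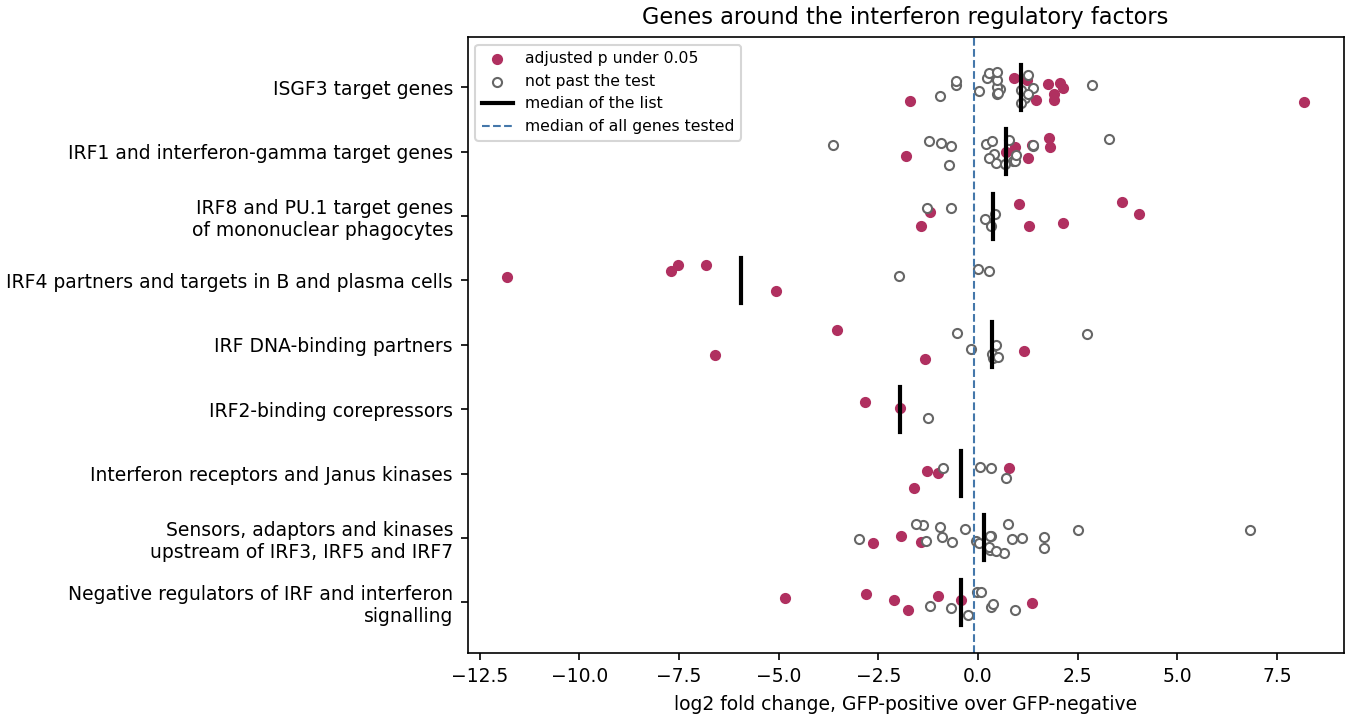
Log2 fold change, GFP-positive over GFP-negative, of each tested gene in 9 lists around the family; filled points pass at an adjusted p under 0.05, black bars are list medians and the dashed line is the median of all genes tested, -0.09. The ISGF3 targets have a median of 1.07 and the IRF4 partners and targets one of -5.95.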

How the data were processed

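Libraries were grouped by the sorted fraction in their labels, 3 GFP-positive and 3 GFP-negative. The labels name no animal, batch or shared number, so p-values measure the spread between libraries, which may be technical. The authors deposited 1 table of raw read counts for 35275 genes, of which 34490 matched a gene symbol and 16436 were at 0 throughout. Tools named in the submitters' processing notes, without their roles, are HTSeq 0.6.1, RSEM, edgeR, Bowtie2 2.2.3, DESeq 1.18.0 and TopHat2 2.0.12. The sources used here do not give the genome build, the annotation or the strand setting, so reads of overlapping genes cannot be told apart. Per the labels' protocols the libraries had no molecular identifiers. Counting intervals and floors cover counting error only.

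Counts were fitted in R 4.3.3 with edgeR 4.0.16 (filter with a minimum count of 10, TMM scaling, robust quasi-likelihood test, Benjamini-Hochberg over 12122 genes, call at an adjusted p under 0.05); limma 3.58.1 and DESeq2 1.42.0 served as alternatives. Fold changes on the log2 scale subtract the GFP-negative from the GFP-positive group, and standard errors came from the test statistic. The script was tested on simulated data with less spread between libraries than these have, which does not show how the calls behave here. The members and the 24 gene lists were chosen with earlier results of these data known. Named genes were all members, the 2 nearest profiles of each member, and up to 4 genes with the smallest p in each pathway list. Genes moving with most of the called list came first, and any gene called against it was named too. Genes with exons overlapping a member, Pecam1, Spi1 and single cell type markers are named beside them. Members' proteins were not analysed here, and some items are not reported here.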

Additional observations from a re-analysis of the deposited data

How the results depend on the processing

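In the alternatives run (other scalings, tests and filters, leaving out immunoglobulin and lymphocyte marker genes, leaving out each library) 1 member, Irf7, was called higher. The number called lower was 3, except 4 with limma-voom and without GFP-positive library 3, where Irf4 was added, and 2 without each of the other libraries, where Irf5 was lost. The 5 within-library ratios kept their direction with other added values and without each library, and their p cannot go below 0.1. The log2 fold change of Irf9 turned to 0.0047 without GFP-positive library 3, and the values without 1 library ran from -0.64 to 0.0047. The cause was not tested. Over all genes, 2157 passed, against 994, 1027 and 1045 without GFP-negative library 1, 2 and 3, 3225 with DESeq2 and 1751 of 18839 genes without the filter. These fits without a library have fewer samples, and the number of called genes in a list moved by over 1.5 times in 54 of 312 comparisons with an alternative, 46 of them without 1 library. No paired analysis was possible because the groups share no replicate number in the labels.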
